A study of Mus musculus with 6 samples.

Results

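Genes of the peroxisome were described here in 3T3-L1 adipocytes, cells of a mouse preadipocyte line taken 10 days after differentiation. The set names 31 genes, of which 13 are peroxins, the proteins that build the organelle, and 18 are enzymes or transporters of peroxisomal lipid metabolism. A gene counted as measured when a probe of the array carried its symbol and no other, and the probe with the highest mean log2 value stood for it. By this rule 29 of the 31 genes were measured, 12 peroxins and 17 enzymes and transporters, out of 18014 measured genes. Pex10 and Acaa1b were not analysed here. The probe listed for Acaa1b also carries the symbol Acaa1a.

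The study set 3 arrays of adipocytes expressing uncoupling protein 1 (UCP1), a mitochondrial carrier that lets protons back into the matrix without ATP synthesis, against 3 arrays of adipocytes carrying the Tet-off plasmid alone (control). Total RNA was labelled with biotin and hybridised to one-colour CodeLink mouse whole genome arrays. The UCP1 arrays are titled UCP1, UCP2 and UCP3, and they were taken as 1 group because the source label of each names uncoupling protein 1. The labels give neither the promoter that drove UCP1 nor whether the cells were 1 clone, nor whether the UCP1 cells carried the Tet-off plasmid too, and they do not state that replicates were separate cultures. The p-values therefore rest on array-to-array spread alone, part of which may be technical.

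Peroxisomes shorten very long and branched fatty acids that mitochondria cannot start on, break down the hydrogen peroxide that this releases, and carry out the opening steps of ether lipid synthesis. Their enzymes are made in the cytosol and imported folded, by receptors that cycle between the cytosol and a docking complex in the peroxisomal membrane. In adipocytes peroxisomes multiply during differentiation, and several of their genes are known targets of the PPAR family of nuclear receptors.

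Ucp1 itself read 2.34, 2.02 and 1.54 on the UCP1 arrays, against 0.222, 0.232 and 0.278 on the control arrays, in the arrays' linear intensity units, in which the median probe read 1.04 to 1.05. The groups did not overlap (log2 difference 3.00 ± 0.234 SE, limma adjusted p = 0.00013), and an exact two-sided permutation test gave p = 0.1, the smallest that 3 against 3 arrays allow. The control readings lay far below the median probe, so the size of this difference depends on how low values are treated, and it was 2.49 with an offset of 0.125 before log2. The 99th percentile of intensity was 185 to 225 on UCP1 arrays and 255 to 279 on control arrays, so bright probes as a class read lower in UCP1. Summed over 8 of 11 adipocyte markers, intensity was 2812 to 3883 on UCP1 arrays and 3414 to 3917 on control arrays, with 0 called by limma (1 at an unadjusted p under 0.05). Of 9 preadipocyte and fibroblast markers 3 rose in UCP1, against 1.13% of all genes, namely Lum (log2 difference 0.90), Thy1 (0.80) and Pdgfra (0.67). In the same list 4 lay below 0, none called, namely Fn1 (-0.43), Sox9 (-0.28), Col1a1 (-0.21) and Col3a1 (-0.06). The sum of the 9 was 779 to 1008 on UCP1 arrays and 831 to 1026 on control arrays, most of it from Col3a1. No macrophage or endothelial marker read above 0.670 on any array. Skeletal muscle markers summed to 4.59 to 6.59 on UCP1 arrays and 7.20 to 8.63 on control arrays, mostly from desmin. The part of these marker shifts in the peroxisomal values was not tested.

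In the deposited scaling, 3 of the 29 peroxisomal genes fell and 0 rose in UCP1 (limma, adjusted p under 0.05 over all probes), where 2.92% of all genes fell and 1.13% rose. At an unadjusted p under 0.05, 10 of the 29 (34.5%) lay lower and 1 (3.45%) higher, against 15.1% and 5.73% of all genes. The 10 were Pex6, Pex16, Pex19, Pex11a, Acox3, Ech1, Decr2, Phyh, Amacr and Abcd4, and the 1 was Abcd3. Among genes at or above the median probe level, where 27 of the 29 lie, 4.67% fell, and at that unadjusted threshold 22.3% lay lower and 6.41% higher. The genes that fell were Pex11a, Phyh and Abcd4. Of these Abcd4 is a member of the set whose protein is now placed in lysosomes. In RNA from whole cultures, fewer cells expressing a gene and less of its RNA per cell cannot be told apart. In 8 genes the 3 UCP1 arrays lay wholly below the 3 controls and in 1 gene wholly above, against 17.1% and 8.09% of all genes. Among genes at or above the median level the share wholly below was 23.7%, so a count of 8 is near the background. The median log2 difference was -0.26 over the 29 genes, against -0.08 over all genes and -0.11 over genes at or above the median level. The per-array plot of all 29 genes shows these differences beside the spread of the controls.

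**Figure D1:**
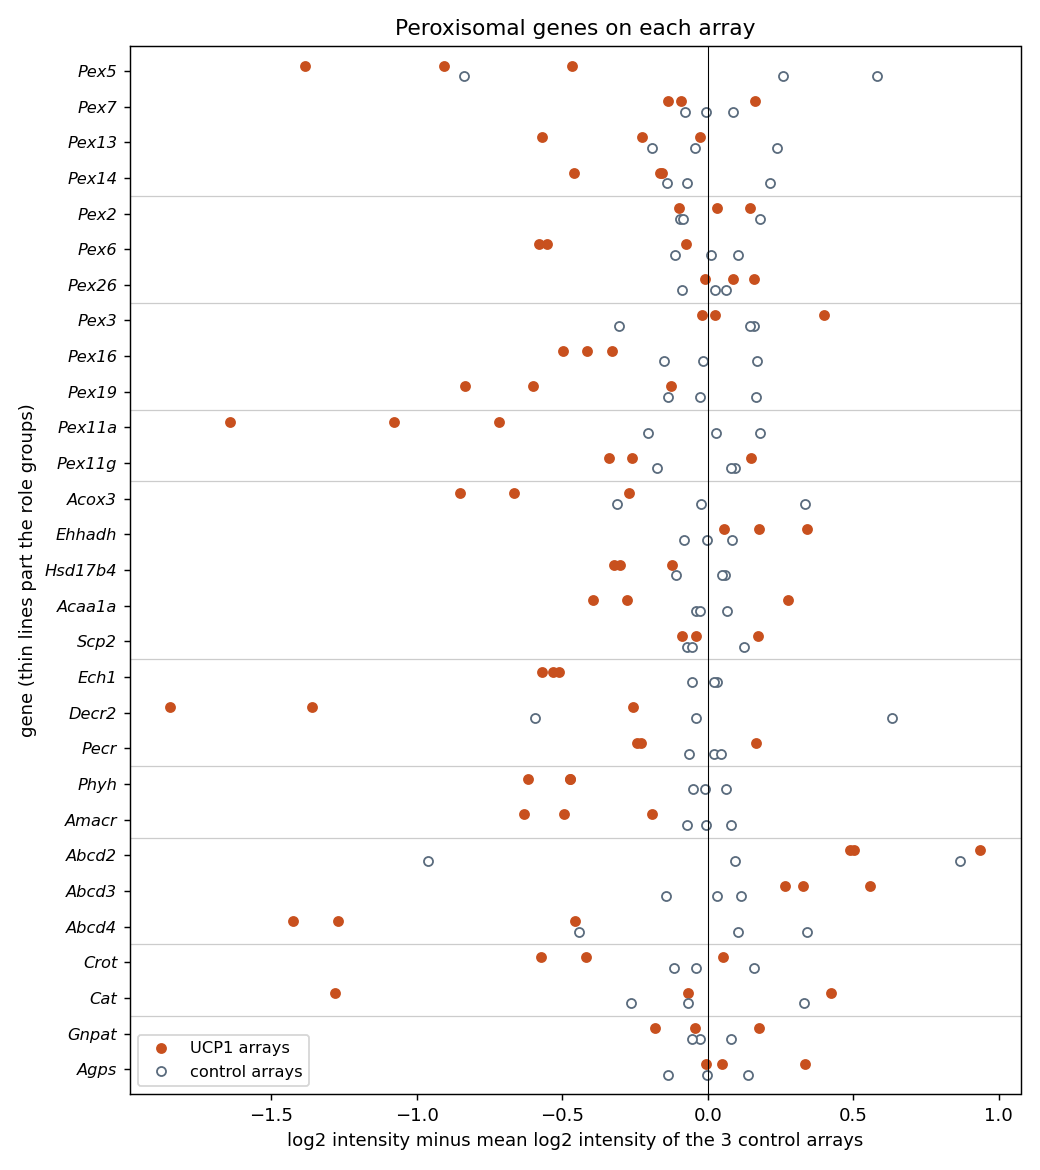
Log2 intensity of each of the 29 peroxisomal genes on each array, as the difference from the mean of the 3 control arrays (x axis, log2 units), with filled points for UCP1 arrays and open points for control arrays. Pex11a, Ech1 and Phyh show UCP1 points clear of the controls, with log2 differences of -1.15, -0.54 and -0.52, and most other genes overlap.

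Pex11a showed the clearest change among the peroxins. It encodes PEX11 alpha, a membrane protein that elongates peroxisomes before they divide and the form induced by peroxisome proliferators in rodent liver. Pex11a read 14.7, 18.8 and 9.94 on the UCP1 arrays, against 35.1, 31.5 and 26.9 on the control arrays. All 3 UCP1 arrays lay well below the lowest control. It fell 2.21-fold (log2 difference -1.15 ± 0.198 SE, limma adjusted p = 0.0125). The call held after quantile normalization, at -1.004 (adjusted p = 0.0361), and after cyclic loess, at -1.01 (adjusted p = 0.0289), the 2 rescalings tried. It was lost without UCP1 array 3, at -0.90 (adjusted p = 0.0607), and without limma's intensity trend (adjusted p = 0.252), where 0 of all genes were called and 1999 (11.1%) lay lower and 837 (4.65%) higher at an unadjusted p under 0.05. Pex11g, which encodes a second member of the PEX11 family of division proteins, averaged 8.18 ± 1.55 in UCP1 and 9.02 ± 0.907 in controls (SD, n = 3 each), a log2 difference of -0.15 ± 0.144 SE that did not pass.

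The gene starts of Pex11a and Phyh, called genes whose promoters are in the RefSeq table of GRCm38.p6, are shown because both genes fell. Each run covers 250 bases before to 50 bases after the gene start, 5′ to 3′ on the gene's own strand. Capitals mark matches on either strand to AGGTCA, the core hexamer bound by nuclear receptors such as the PPARs, to GGGCGG, the GC box, to CCAAT, and to CACGTG, the E-box. Pex11a lies at chr7:79743082-79743381 on the minus strand and Phyh at chr2:4918746-4919045 on the plus strand.
Pex11a: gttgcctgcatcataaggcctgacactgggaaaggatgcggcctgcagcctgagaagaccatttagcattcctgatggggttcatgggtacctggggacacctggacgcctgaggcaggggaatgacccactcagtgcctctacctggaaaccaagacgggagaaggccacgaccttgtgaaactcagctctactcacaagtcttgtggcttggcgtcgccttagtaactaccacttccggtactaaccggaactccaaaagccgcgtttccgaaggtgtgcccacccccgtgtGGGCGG
Phyh: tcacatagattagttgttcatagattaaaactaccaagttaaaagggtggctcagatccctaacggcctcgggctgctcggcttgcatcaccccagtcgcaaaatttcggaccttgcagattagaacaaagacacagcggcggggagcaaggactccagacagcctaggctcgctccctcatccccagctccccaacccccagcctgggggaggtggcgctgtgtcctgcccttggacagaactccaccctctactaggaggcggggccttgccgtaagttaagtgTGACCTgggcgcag

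The Pex11a window held 1 GC box at its downstream end and 0 core hexamers, and the Phyh window held 1 core hexamer, on the reverse strand near its downstream end, and 0 GC boxes. Promoters of 23 of the 29 genes were in the table, 27 windows in all. AGGTCA or its complement was in 4 of the 27 (14.8%), those of Cat, Pex11g, Phyh and Scp2, against 16.3% of all 32851 windows. A direct repeat of that hexamer with 1 base between, AGGTCANAGGTCA, the textbook element of PPAR with its partner RXR, was in 0 of the 27 and in 0.0396% of all windows. It contains the hexamer, so the 2 searches overlap. GGGCGG was in 20 of the 27 windows (74.1%), against 35.7% of all, and the median GC content was 58.3% in the 27 windows and 52.7% over all. CCAAT was in 37.0% of the 27 and 37.4% of all, and CACGTG in 1 of the 27 (3.7%), that of Gnpat, against 7.15% of all. These are matches of letters in a short window and say nothing of binding.

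None of the 7 import genes passed the test (limma), and 1, Pex6, had an unadjusted p under 0.05, lower in UCP1. At that threshold 15.1% of all genes lay lower. In the receptors and the docking complex, Pex5 encodes the receptor for enzymes with the carboxy-terminal signal, Pex7 the receptor for the amino-terminal signal, and Pex13 and Pex14 the docking proteins. Pex5 read 0.141, 0.101 and 0.191 on the UCP1 arrays, against 0.395, 0.316 and 0.148 on the control arrays. All 6 readings lay below the median probe, and control 3 lay inside the UCP1 range (log2 difference -0.92 ± 0.581 SE, limma adjusted p = 0.476). Pex7 averaged 42.5 ± 4.85 in UCP1 and 43.0 ± 2.45 in controls (SD, n = 3 each), a log2 difference of -0.02 ± 0.127 SE. Pex13 and Pex14 stood at -0.27 ± 0.159 and -0.26 ± 0.133 on the log2 scale, and the 3 UCP1 arrays of Pex14 lay just below its controls.

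Release of the receptor needs PEX2, a ubiquitin ligase of the membrane, and PEX6, an ATPase that PEX26 anchors there. Pex6 read 56.2, 39.6 and 40.4 on the UCP1 arrays, against 63.6, 59.7 and 54.7 on the control arrays. UCP1 array 1 lay inside the control range while the others lay below it (log2 difference -0.40 ± 0.154 SE, limma adjusted p = 0.199), and without that array Pex6 passed at -0.57 (adjusted p = 0.0201). Its other probe read under 0.223 on every array. Pex2 and Pex26 stood at 0.03 ± 0.121 and 0.08 ± 0.114 on the log2 scale, each with overlapping groups.

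PEX3, PEX16 and PEX19 place proteins in the peroxisomal membrane, with PEX19 as the soluble chaperone and PEX3 as its dock. With all arrays none of the 3 genes passed (limma). Pex16 and Pex19, 2 of the 3, lay lower at an unadjusted p under 0.05, where 15.1% of all genes did. Pex19 read 13.4, 21.9 and 15.8 on the UCP1 arrays, against 26.9, 23.5 and 21.8 on the control arrays. UCP1 array 2 reached the lowest control and the others lay clearly below (log2 difference -0.52 ± 0.167 SE, limma adjusted p = 0.123). Without UCP1 array 2 Pex19 passed, at -0.72 (adjusted p = 0.00958). Pex16 averaged 19.4 ± 1.13 in UCP1 and 25.9 ± 2.90 in controls (SD, n = 3 each) with no overlap, at -0.41 ± 0.120 SE (adjusted p = 0.0902). Pex3 went the other way, at 0.13 ± 0.159 SE on its brighter probe and -0.09 ± 0.151 SE on its other.

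**Figure D2:**
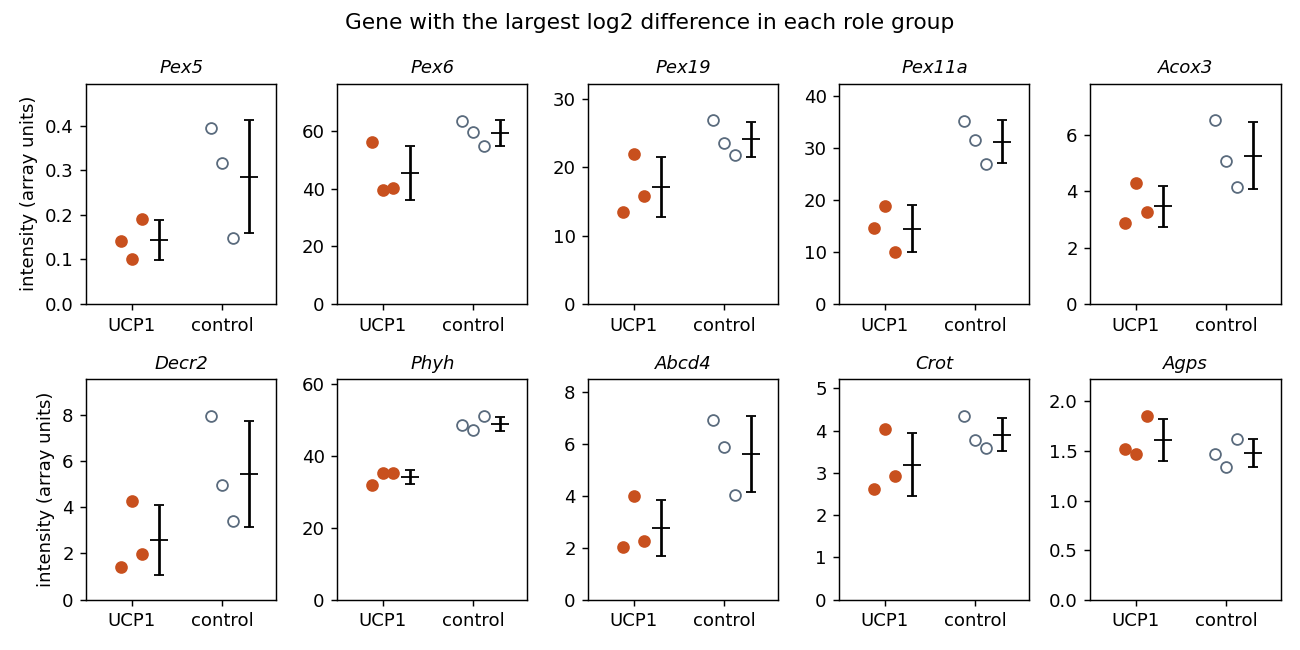
Linear intensity (y axis, array units, from 0) on each array of the gene with the largest absolute log2 difference in each of the 10 role groups, UCP1 left of control, with the mean and SD of 3 arrays beside the points. Phyh shows the tightest groups, with means of 34.1 in UCP1 and 48.9 in controls, while UCP1 array 2 is the middle point and the highest UCP1 reading for Pex19, Pex11a, Acox3, Decr2, Abcd4 and Crot.

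In both genes of branched-chain entry the UCP1 arrays lay wholly below the controls. They are 2 of the 8 such genes of the set. The same held for 17.1% of all genes, and for 23.7% of those at or above the median level. Phyh encodes phytanoyl-CoA hydroxylase, which starts the alpha-oxidation of phytanic acid and is the gene of Refsum disease. Phyh read 31.8, 35.3 and 35.2 on the UCP1 arrays, against 48.5, 47.2 and 51.1 on the control arrays. The UCP1 readings all lay far below the lowest control, and Phyh fell 1.44-fold (log2 difference -0.52 ± 0.116 SE, limma adjusted p = 0.0374). Its size hardly moved when single arrays were left out, between -0.55 and -0.47, but the call was lost without UCP1 array 3 (adjusted p = 0.118) and without control 1 (0.139), control 2 (0.118) or control 3 (0.133). After quantile normalization it stood at -0.36 (adjusted p = 0.159) and after cyclic loess at -0.35 (adjusted p = 0.162). Amacr, whose enzyme turns branched acyl-CoAs into the form that beta-oxidation accepts, averaged 21.4 ± 3.44 in UCP1 and 28.8 ± 1.51 in controls (SD, n = 3 each), at -0.44 ± 0.132 SE (adjusted p = 0.1).

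The 5 core enzymes of peroxisomal beta-oxidation showed no call (limma), and 1, Acox3, lay lower at an unadjusted p under 0.05. At that threshold 15.1% of all genes lay lower. Acox3 encodes an acyl-CoA oxidase that acts on branched substrates and makes hydrogen peroxide. Acox3 read 2.87, 4.28 and 3.26 on the UCP1 arrays, against 6.52, 5.09 and 4.17 on the control arrays. UCP1 array 2 just exceeded control 3 and the other UCP1 arrays lay below all controls (log2 difference -0.60 ± 0.184 SE, limma adjusted p = 0.108). Without UCP1 array 2 it passed, at -0.76 (adjusted p = 0.0258). Ehhadh and Hsd17b4 encode the 2 bifunctional enzymes of the pathway, and they stood at 0.19 ± 0.133 and -0.25 ± 0.121 on the log2 scale. Acaa1a, a thiolase, averaged 97.2 ± 25.3 in UCP1 and 104 ± 4.30 in controls, and Scp2, the thiolase for branched chains and a lipid carrier, 195 ± 19.2 in UCP1 and 193 ± 14.8 in controls (SD, n = 3 each). Both lay within the spread of the arrays, and the dimmer probe of Scp2, at -0.48 ± 0.134 SE (adjusted p = 0.0812), differed in direction from its brighter one, at 0.02 ± 0.164 SE.

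Enzymes that deal with double bonds had some of the lower values. Decr2 encodes the peroxisomal dienoyl-CoA reductase. Decr2 read 1.42, 4.28 and 1.99 on the UCP1 arrays, against 7.94, 4.97 and 3.39 on the control arrays. UCP1 array 2 fell inside the control range, and the log2 difference of -1.15 ± 0.362 SE did not pass (limma adjusted p = 0.113). Without UCP1 array 2 it was -1.60 (adjusted p = 0.00571). Ech1, a dienoyl-CoA isomerase found in peroxisomes and mitochondria, averaged 93.3 ± 1.88 in UCP1 and 136 ± 4.43 in controls (SD, n = 3 each). Its groups stood wide apart, at -0.54 ± 0.135 SE, yet it missed the threshold (adjusted p = 0.0582) and passed with robust eBayes (adjusted p = 0.0412), where 3.57% of all genes fell. Pecr, a trans-2-enoyl-CoA reductase, stood at -0.10 ± 0.134 SE on the log2 scale.

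The 3 ABC transporters went different ways. ABCD2 and ABCD3 carry fatty acyl-CoAs into peroxisomes, whereas ABCD4, despite its family name, is now placed in lysosomes, where it serves cobalamin. Abcd4 read 2.03, 3.97 and 2.26 on the UCP1 arrays, against 6.91, 5.86 and 4.01 on the control arrays. UCP1 array 2 and control 3 all but touched, and Abcd4 fell 2.07-fold (log2 difference -1.05 ± 0.248 SE, limma adjusted p = 0.046). The call was lost after quantile normalization, at -0.97 (adjusted p = 0.0982), after cyclic loess, at -0.99 (0.0981), with robust eBayes (0.126), and without UCP1 array 1 (0.0956), UCP1 array 3 (0.242), control 1 (0.158) or control 2 (0.114). Abcd3 read 1.41, 1.35 and 1.65 on the UCP1 arrays, against 1.02, 1.22 and 1.15 on the control arrays, and was the gene of the set wholly higher in UCP1, at 0.38 ± 0.166 SE without passing (adjusted p = 0.261). Abcd2 read below the median probe on all arrays, at 0.64 ± 0.399 SE on its brighter probe and 1.06 ± 0.570 SE on its other.

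The remaining 4 enzymes did not pass (limma), and 0 had an unadjusted p under 0.05, where 15.1% of all genes lay lower and 5.73% higher. Crot, the carnitine octanoyltransferase that readies shortened chains for export to mitochondria, read 2.62, 4.03 and 2.91 on the UCP1 arrays, against 4.34, 3.79 and 3.59 on the control arrays. UCP1 array 2 lay inside the control range (log2 difference -0.31 ± 0.164 SE, limma adjusted p = 0.372). Cat encodes catalase, which destroys hydrogen peroxide. Cat read 308, 94.3 and 219 on the UCP1 arrays, against 218, 191 and 288 on the control arrays, so UCP1 array 2 was lowest and array 1 highest of all 6. Its log2 difference was -0.31 ± 0.349 SE and turned to 0.18 without UCP1 array 2. Gnpat and Agps encode the enzymes that open plasmalogen synthesis, with GNPAT adding an acyl chain that AGPS then exchanges for the ether-linked one. Agps read 1.52, 1.47 and 1.85 on the UCP1 arrays, against 1.47, 1.34 and 1.62 on the control arrays, with overlapping groups (0.13 ± 0.161 SE, adjusted p = 0.746). Gnpat averaged 130 ± 16.5 in UCP1 and 130 ± 6.45 in controls (SD, n = 3 each), at -0.02 ± 0.153 SE.

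Peroxins and the enzymes and transporters had nearly the same median. Of 12 peroxins 1 fell and 9 lay below 0, with a median log2 difference of -0.27 and a range of -1.15 to 0.13. Of 17 enzymes and transporters 2 fell and 12 lay below 0, with a median of -0.25 and a range of -1.15 to 0.64. Of all genes 2.92% fell and 60.1% lay below 0. No test of the difference between the classes was made. Measured from the control mean, the peroxin median was -0.05, -0.21 and -0.40 on UCP1 arrays 1 to 3, against 0.16, -0.01 and -0.06 on the controls. That of the enzymes and transporters was 0.05, -0.26 and -0.28 on the UCP1 arrays, against 0.03, -0.03 and -0.05 on the controls. UCP1 array 1 thus lay inside the control range for the peroxins and just above all controls for the enzymes and transporters. The median over all genes was 0.04, -0.11 and -0.13 on the same UCP1 arrays, against 0.05, -0.03 and 0.00 on the controls.

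**Figure D3:**
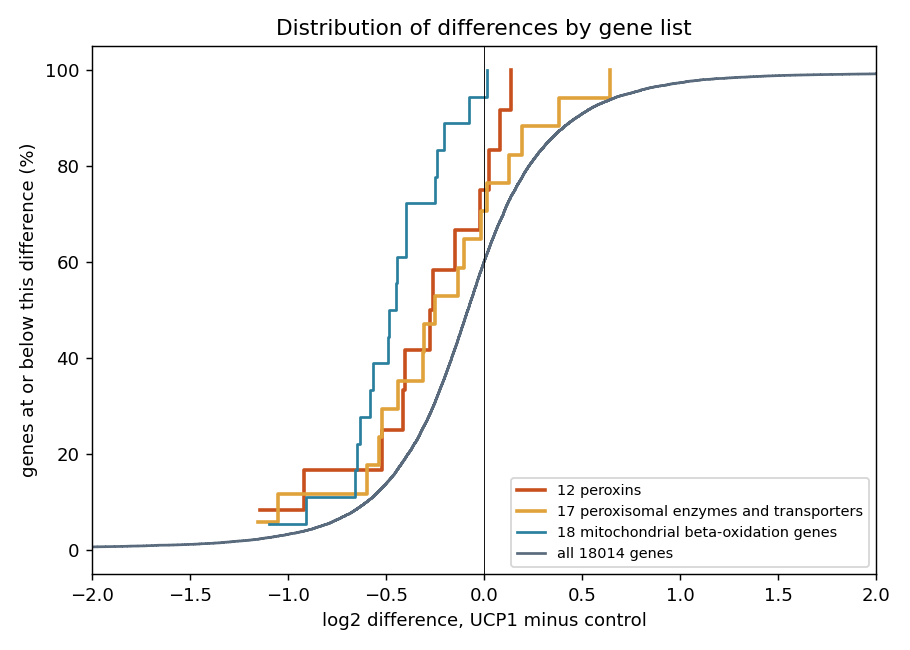
Cumulative share of genes (y axis, percent) at or below each log2 difference between UCP1 and control (x axis, shown from -2 to 2) for 12 peroxins, 17 peroxisomal enzymes and transporters, 18 mitochondrial beta-oxidation genes and all 18014 genes. The medians are -0.27 for peroxins, -0.25 for the enzymes and transporters, -0.47 for mitochondrial beta-oxidation and -0.08 for all genes, and the curves of the lists cross in the lower tail.

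Rescaling the arrays moved the medians of the 2 classes by unlike amounts. The middle gene of the enzymes and transporters was Hsd17b4 (-0.25) in the deposited scaling and Cat (0.0166) after quantile normalization. The medians therefore do not show that the genes of the 2 classes moved unequally. After quantile normalization, which gives all arrays the same distribution of intensities, the peroxin median was -0.13 and that of the enzymes and transporters 0.0166. There was 1 call, Pex11a, among the 29 genes, where 1.72% of all genes fell and 2.27% rose. At an unadjusted p under 0.05 (limma), 9 of the 29 (31%) then lay lower and 3 (10.3%) higher, against 10.9% and 10.8% of all genes. After cyclic loess the medians were -0.13 and -0.052, again with Pex11a as the 1 call, where 1.82% fell and 2.09% rose. Pex7, Acaa1a, Pecr and Gnpat turned positive under both rescalings, and Cat under quantile normalization. Leaving out UCP1 array 2 moved the median of the enzymes and transporters to -0.031. The plot of differences under the 3 scalings shows that genes with large differences kept their sign.

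**Figure D4:**
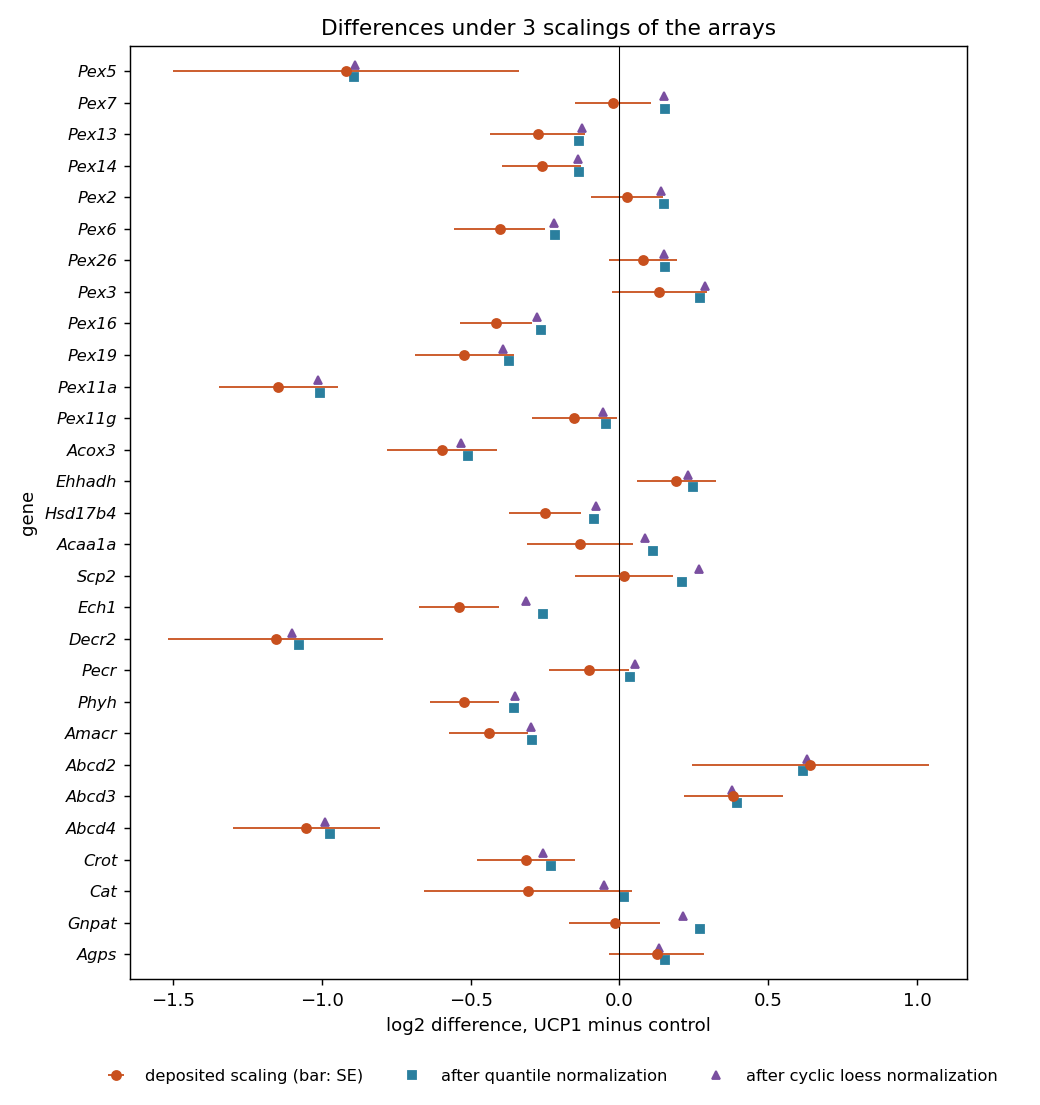
Log2 difference between UCP1 and control (x axis) for each of the 29 genes in the deposited scaling (circles, bars are SE), after quantile normalization (squares) and after cyclic loess normalization (triangles). Pex11a keeps its size under all 3, at -1.15, -1.004 and -1.01, while Gnpat moves across 0, with values of -0.02, 0.27 and 0.22.

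Other peroxisomal genes were taken from a wider list of 63, of which 50 were measured. Of these 2 fell and 1 rose, where 2.92% of all genes fell and 1.13% rose. Below 0 lay 38, against 60.1% of all genes, and the median was -0.23. Pxmp4, a peroxisomal membrane protein, averaged 31.3 ± 3.80 in UCP1 and 52.3 ± 7.50 in controls (SD, n = 3 each), and fell by 0.74 on the log2 scale (limma adjusted p = 0.0218), a call lost without UCP1 array 3 (0.126), control 1 (0.103) or control 2 (0.069). Mpv17, once described as peroxisomal and now placed in the inner mitochondrial membrane, fell by 0.54 (adjusted p = 0.0444), a call lost in 10 of 14 alternatives, among them quantile normalization (0.0699) and leaving out UCP1 array 1 (0.0531), UCP1 array 3 (0.201) or any control (0.0721 to 0.176). Acoxl, a relative of the acyl-CoA oxidases, read 1.24, 0.947 and 0.702 on the UCP1 arrays, against 0.405, 0.283 and 0.216 on the control arrays, where it was dim, and rose by 1.69 (adjusted p = 0.018), a call lost without UCP1 array 1 (0.0509) or UCP1 array 3 (0.0633). After quantile normalization the list had 30 of 50 below 0 and a median of -0.09.

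Among 8 measured regulators of peroxisomal and lipid genes, Ppargc1b was the 1 that passed, where 2.92% of all genes fell and 1.13% rose. It encodes PGC-1 beta, a coactivator of nuclear receptors. Ppargc1b read 9.30, 7.07 and 7.50 on the UCP1 arrays, against 14.6, 15.1 and 13.9 on the control arrays. The groups stood clear of each other, and it fell 1.83-fold (log2 difference -0.87 ± 0.125 SE, limma adjusted p = 0.00485), a call lost without UCP1 array 3 (adjusted p = 0.0554) and without the intensity trend (0.211), but not in the other 12 alternatives. Ppara, the receptor that drives peroxisome proliferation in rodent liver, was dim at 1.08 ± 0.442 in UCP1 and 0.716 ± 0.179 in controls (SD, n = 3 each), at 0.54 ± 0.288 SE. Pparg stood at -0.21 ± 0.155 SE and Ppargc1a, the related coactivator, at -2.02 ± 0.599 SE (limma adjusted p = 0.0961). Ppargc1a was dim as well, at 0.318, 0.560 and 0.110 on the UCP1 arrays, against 2.65, 0.841 and 0.591 on the control arrays. Control 1 stood far above the other controls.

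Mitochondrial beta-oxidation, the pathway that takes over chains shortened in peroxisomes, had a lower median than the peroxisomal genes, a difference that was not tested. Of 18 measured genes 1 fell, Crat, by 0.66 on the log2 scale (limma adjusted p = 0.0389). The median was -0.47, and 17 lay below 0, against 60.1% of all genes. The UCP1 arrays lay wholly below the controls in 17.1% of all genes, or 23.7% at or above the median level. They did so in 8 of the 29 peroxisomal genes and in 12 genes of mitochondrial beta-oxidation. After quantile normalization its median was -0.20, with 15 below 0 and 0 calls by limma (7 lower and 1 higher at an unadjusted p under 0.05, against 10.9% and 10.8% of all genes), Crat then standing at -0.39 (adjusted p = 0.17). The call of Crat was lost in 8 of 14 alternatives, also after cyclic loess (adjusted p = 0.124), with the replicate block (0.0646), without the intensity trend (0.247), and without UCP1 array 3 (adjusted p = 0.143), control 1 (0.183), control 2 (0.113) or control 3 (0.0981).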

How the data were processed

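The values are intensities that the authors deposited, on a linear scale and, from the values, set to nearly the same median on each array. The sources used here do not name the image software or the steps of background correction and scaling. A code of -9999 marked no value, at 116 to 125 probes per array. Values at or below 0, 80 to 159 on each array, were set to the smallest positive value of the array before log2. Of 36227 probes 36116 had at least 2 values per group and were tested. Genes were named from the platform annotation, where 21615 probes had 1 symbol, 681 several and 13931 none. Of those with 1 symbol 21487 matched RefSeq gene IDs of GRCm38.p6 and 0 changed name. All 29 measured members matched.

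UCP1 was compared with control by limma 3.58.1 in R 4.3.3, using lmFit, then eBayes that lets the prior variance follow intensity, in two-sided tests with Benjamini-Hochberg adjustment over all tested probes. 1021 probes passed at 0.05 (2.03% lower and 0.8% higher), and the functions were tested on simulated data. With 3 arrays a group, their number limits the precision. Replicate numbers follow accession order. Every member is named, with readings on each array for called members and for the member of each role group with the largest difference. From the other lists the called genes and a few set genes are named. Members and lists were chosen with earlier results of these data known. Alternatives were an offset of 0.125 before log2, 2 normalizations, brighter probes only (at or above the median level), no trend, robust eBayes, the replicate number as a block, the mean of all probes of a gene, and each array left out.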

Additional observations from a re-analysis of the deposited data

How the results depend on the processing

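In the deposited scaling 3 members fell, 1 peroxin and 2 enzymes or transporters, and 0 rose in any of the 14 alternatives. With the offset the count was also 3, where 3.55% of all genes fell. With quantile normalization and with cyclic loess it was 1 (0 enzymes or transporters), where 1.72% and 1.82% of all genes fell. At an unadjusted p under 0.05 (limma), 9 members and 10.9% of all genes lay lower after quantile normalization. With brighter probes only it was 6 of 27 (5 enzymes or transporters), namely Abcd4, Acox3, Decr2, Ech1, Pex11a and Phyh, where 10.5% of genes fell. Without the intensity trend limma called 0 (0 peroxins, 0 enzymes or transporters), where 7 members and 11.1% of all genes lay lower at an unadjusted p under 0.05, and Ucp1, at 3.00, also lost its call (adjusted p = 0.0855). With the replicate block 1 enzyme or transporter fell in place of 2, Phyh being lost (adjusted p = 0.0611), where 2.2% of all genes fell. With the mean of all probes of a gene it was 1, Abcd4 being lost (adjusted p = 0.0586), where 2.35% fell. The labels give no pairing, and deviations of same-numbered arrays correlated at -0.24, -0.0071 and 0.10. Leaving out single arrays gave 0 to 6 members, 0 to 3 peroxins and 0 to 4 enzymes or transporters that fell. The member count moved with the share of all genes that fell, which was 2.92% with all arrays. It was 6 without UCP1 array 1 (6.62% of all genes), 6 without array 2 (5.48%), 0 without array 3 (0.378%), 1 without control 1 (0.805%), 1 without control 2 (1.07%) and 2 without control 3 (1.73%). Without UCP1 array 3, 9 members and 10.4% of all genes lay lower at an unadjusted p under 0.05.

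The median of the enzymes and transporters, -0.25, became 0.0166 after quantile normalization and -0.052 after cyclic loess, and ranged from -0.31 to -0.031 with single arrays left out, the peroxin median from -0.34 to -0.22. Of 404 comparisons of a single member with its value in the deposited scaling, 351 kept direction and call, 19 lost and 11 gained a call, and 23 changed sign. After quantile normalization and cyclic loess these were Pex7 (0.15 and 0.15), Acaa1a (0.11 and 0.085), Pecr (0.037 and 0.052) and Gnpat (0.27 and 0.22), and Cat (0.0166) after quantile normalization. With the mean of all probes Scp2 stood at -0.23. With single arrays left out Pex7 ranged from -0.11 to 0.035, Pex2 from -0.035 to 0.12, Pex3 from -0.018 to 0.21, Scp2 from -0.063 to 0.078, Cat from -0.67 to 0.18 and Gnpat from -0.11 to 0.067. The causes of these changes were not tested beyond the scaling itself. Dim members, Pex5 and Abcd2, had standard errors of 0.581 and 0.399, so small changes in them could not be seen.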

Other observations

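Among the other peroxisomal genes, a few that missed the threshold had large differences and were chosen for mention after their values were seen. Lonp2, the protease of the peroxisomal matrix, read 3.25, 9.26 and 5.47 on the UCP1 arrays, against 14.0, 12.3 and 8.85 on the control arrays, a log2 difference of -1.07 ± 0.297 SE (limma, adjusted p = 0.0791). UCP1 array 2 lay inside the control range. Acox2, the acyl-CoA oxidase of bile acid intermediates in liver, read 7.85, 5.67 and 7.75 on the UCP1 arrays, against 9.60, 11.3 and 19.1 on the control arrays, at -0.86 ± 0.221 SE (adjusted p = 0.062), with control 3 far above the other controls.

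UCP1 array 2 was the highest UCP1 reading and control 1 the highest control reading in the same 6 members, Pex19, Pex11a, Acox3, Decr2, Abcd4 and Crot. This was 20.7% of the 29 members, against 16.2% of 17985 genes with a value on all arrays. All 6 had a negative difference, between -1.15 and -0.31, where 21 of the 29 members and 60.1% of all genes lay below 0. The share below 0 among all genes with this array order was not counted. The range over 3 arrays had a median of 0.42 on the log2 scale on UCP1 arrays and 0.27 on control arrays over the 29 members, against 0.34 and 0.21 over genes at or above the median level.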
